A study of Homo sapiens with 54 samples.

Results

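RfxCas13d is an RNA-guided RNA nuclease of the type VI CRISPR family: a crRNA directs it to a complementary transcript, which it then cuts. Once bound to its target, a Cas13 nuclease can also cleave bystander transcripts, which is called collateral cleavage, and RfxCas13d-N2V8 is a high-fidelity variant engineered to lessen it. Wild-type RfxCas13d (WT) and N2V8 were compared here with the same crRNA, named S4. The 6 libraries were those whose columns in the deposited table read WT_S4 and N2V8_S4, 3 of each, out of 54 libraries in 18 groups of 3.

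Both groups were HEK293T cells, a human embryonic kidney line, of wild-type C9ORF72 genotype. The cells were transiently transfected with a plasmid for the effector and the crRNA. They were harvested 48 hours after transfection according to the labels, although the study's results text gives a later time for its RNA-seq of HEK293T cells. Stranded libraries were then made from poly(A) RNA. The labels describe S4 only as an additional crRNA kept for pairwise comparison and name no target for it, so the 6 libraries differed by label in the effector alone. Other groups set beside S4 below carried the same effectors with a non-targeting crRNA or with the crRNAs S13, S3 and S7. For its mouse data the study's supplement uses S13 for a crRNA against C9ORF72. Its other numbered crRNAs also target C9ORF72, but the labels do not tie S3, S4 or S7 to them. The effector came from a transient plasmid, so the measured RNA is an average over cells that did and did not take it up, and neither the effector's level nor the number of expressing cells was measured in the table. In such bulk samples a smaller number of cells carrying a transcript and less of it per cell cannot be told apart. The labels do not say whether replicates were separate cultures. The study's text describes its in vitro replicates as biologically independent, without tying this to single libraries. The p-values measure the spread between replicate libraries, pooled over the 18 groups of all 54 libraries and not over these 6 alone.

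The WT_S4 libraries held 11203184 to 12492325 estimated counts each and the N2V8_S4 libraries 11273916 to 12502563, within the 9546826 to 15099153 of all 54. The share of counts in ribosomal RNA genes was 2.52% to 3.93% for WT_S4 and 2.34% to 3.28% for N2V8_S4. All 10 markers of HEK293T cells that were examined lay above 1 CPM (counts scaled per 1e+06 of the normalised library size) in all 6 libraries. Of 10 neuroblastoma markers, PHOX2A, TH, DBH and DDC were at 0 in all 6. Another 4, GATA3, ISL1, HAND2 and MYCN, lay above 1 CPM in all 6. GATA3 was at 29.8 to 33.1 CPM in WT_S4 and 33.8 to 37.5 CPM in N2V8_S4. The summed level of the neuroblastoma list was 51 to 55.3 CPM in WT_S4 and 55.3 to 63.5 CPM in N2V8_S4, and that of 16 markers of other lineages, 7 of them at 0 in all 6 libraries, was 25.5 to 30.3 CPM and 22.7 to 26.8 CPM. The part of these shares and markers in the results was not tested. On the first principal component of all 54 libraries, which held 15.7% of the variance, the S4 groups were separate: WT_S4 scored from -17.4 to -14.5 and N2V8_S4 from 0.0541 to 6.79. With a non-targeting crRNA (NTG) the distance between effectors was wider, from -22 to -19.3 in WT_NTG and from 16.3 to 20.6 in N2V8_NTG.

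Of 15378 genes tested, 1139 differed between N2V8_S4 and WT_S4, which is 7.41% of the genes tested. A gene was called when its log2 fold change exceeded 0.32 in either direction and its Benjamini-Hochberg adjusted p from edgeR's quasi-likelihood test was under 0.05. Of the called genes 450 were higher in N2V8 (2.93% of those tested) and 689 were lower (4.48%), so that 39.5% of the calls were higher. Only 194 passed a 2-fold change, 65 higher and 129 lower, and the median absolute log2 fold change over all genes was 0.15. The median signed change was 0.00 on the log2 scale. Fold changes below are given as log2 of N2V8 over WT with their standard error (SE). The 3 WT_S4 and 3 N2V8_S4 libraries did not overlap for 33.1% of all genes tested, so an absence of overlap alone was frequent in this comparison.

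**Figure D1:**
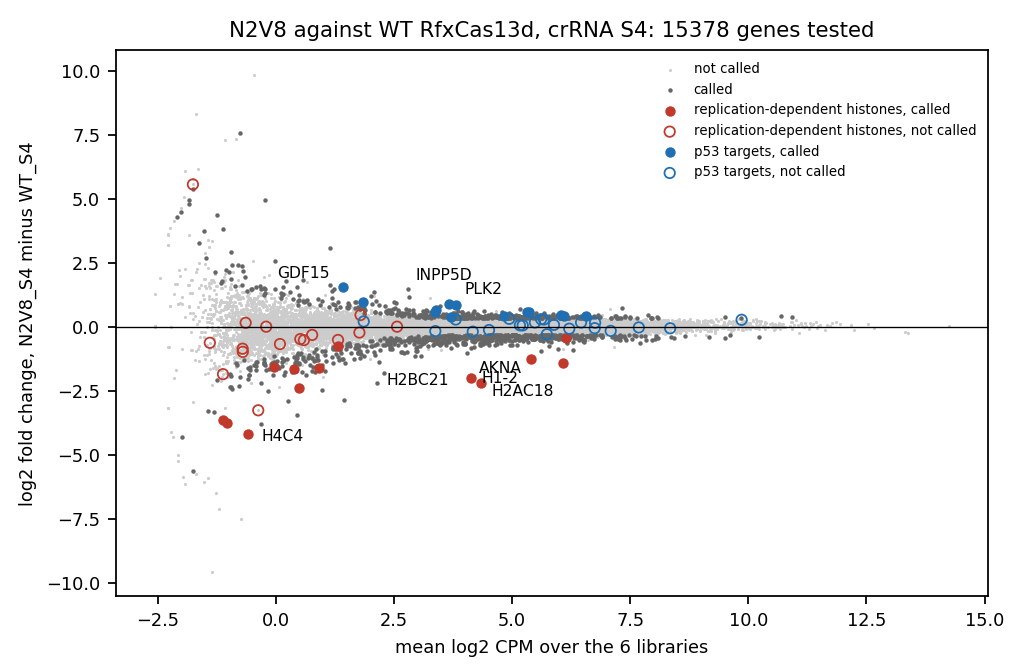
Each point is 1 of the 15378 genes tested, with the mean log2 CPM over the 6 libraries on the x axis and the log2 fold change of N2V8_S4 over WT_S4 on the y axis. Dark points are called genes, and the replication-dependent histone genes and p53 targets are drawn larger. The called histone genes all lie below 0, with 2 of them near -2 at a mean level above 4 on the log2 CPM scale, and the called p53 targets all lie above 0.

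Histone genes were prominent among the transcripts reduced in N2V8_S4. Replication-dependent histone genes supply the nucleosome core proteins H2A, H2B, H3 and H4 and the linker H1 during S phase. Their mRNAs end, as a rule, not in a poly(A) tail but in a short stem-loop that is bound by the stem-loop binding protein and steers processing and decay. A poly(A) library therefore takes up mainly the copies that carry a tail, so the values below need not follow the whole pool of histone mRNA. The stem-loops of the genes that the result turns on are shown because this element defines the group. They were read from GENCODE transcripts on GRCh38, on the RNA strand and 5′ to 3′, with the stem-loop in capitals and flanking bases in lower case.
H2AC18: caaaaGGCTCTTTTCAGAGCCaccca
H2BC21: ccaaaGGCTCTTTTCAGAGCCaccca
H1-2: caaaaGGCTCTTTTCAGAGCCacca
H2BC12: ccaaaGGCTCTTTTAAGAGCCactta
H4C15: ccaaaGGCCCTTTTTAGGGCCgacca
All of them lie on the minus strand in the 3′ untranslated region of the single exon of the transcript used. The positions are chr1:149842218-149842243 for H2AC18, chr1:149886183-149886208 for H2BC21, chr6:26055740-26055764 for H1-2, chr6:27146361-27146386 for H2BC12 and chr1:149860764-149860789 for H4C15. H2AC18, H2BC21 and H1-2 share the same stem-loop letters, and H2BC12 and H4C15 hold other forms. The annotated ends differed as well. The H1-2 transcript stopped 4 bases after the stem-loop, whereas the 2224-base transcript of H2BC21 ran on for 1729 bases.

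The 7 forms of the 16-base stem-loop found among the listed histone transcripts were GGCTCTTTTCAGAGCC, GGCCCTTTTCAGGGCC, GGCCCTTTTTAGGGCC, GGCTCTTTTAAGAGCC, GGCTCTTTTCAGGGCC, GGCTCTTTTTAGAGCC and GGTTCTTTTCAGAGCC. Since all have the same length, no more than 1 form can match at a position. One of them occurred on the RNA strand in 95 of 252835 GENCODE transcripts (0.0376%), and 3 transcripts held one on the opposite strand. Among 14451 tested genes matched by symbol, 30 held a form (0.208%), of which 28 were among the 29 tested histone genes. Of these 30 genes, 13 were called lower in N2V8_S4 by the edgeR test over all genes, against 4.48% of all genes tested. The median log2 fold change of the 30 was -0.80. The forms were read from the listed histone transcripts, and all 13 called genes are histone genes of that list. The count is therefore not a result separate from that of the list, which follows. A letter match describes the transcript and is not a measurement of its processing.

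Of 65 listed replication-dependent histone genes, 61 were in the table and 29 had enough counts to be tested. Of these 29, 13 fell in N2V8_S4 (44.8%, against 4.48% of all genes tested) and 0 rose by the edgeR test. No member was higher at an unadjusted p under 0.05 either (0 genes), and DESeq2 and limma called 0 higher. The median log2 fold change of the 29 was -0.86, and 17 of them had no overlap between the groups, against 33.1% of all genes tested. Their summed level was 348 to 393 CPM in WT_S4 and 166 to 176 CPM in N2V8_S4. The number called lower ran from 11 without N2V8_S4 replicate 2 to 14 without WT_S4 replicate 1.

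H2AC18, which encodes a core histone H2A, stood at 40.5, 45.04 and 43.9 CPM in WT_S4 and at 10.96, 7.94 and 9.11 CPM in N2V8_S4. All 3 WT_S4 libraries were far above all 3 N2V8_S4 libraries, a 4.604-fold difference (log2 -2.20, SE 0.13, adjusted p = 3.44e-19). The gene has a near-identical copy, H2AC19, so the share of reads assigned to each is uncertain. H2BC21, an H2B gene of the same cluster on chromosome 1, measured 32.5, 34.6 and 36.5 CPM in WT_S4 against 8.42, 8.47 and 8.77 CPM. The spread within each group was narrow, and the gene fell by 2.01 on the log2 scale (SE 0.12, adjusted p = 1.59e-19).

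H2AW, another H2A gene on chromosome 1, measured 8.38, 9.74 and 8.55 CPM in WT_S4 and 3.35, 2.68 and 1.63 CPM in N2V8_S4 (log2 -1.79, SE 0.22, adjusted p = 3.43e-09). It was listed under another symbol and is not counted among the 29. H4C15, an H4 gene with the near-identical copy H4C14, measured 90.05, 116 and 124 CPM against 38.9, 38.0 and 46.6 CPM. It was the most abundant of the called histone transcripts in WT_S4, and it fell by 1.42 on the log2 scale (SE 0.15, adjusted p = 4.49e-09). H1-2, a linker histone gene on chromosome 6, measured 60.5, 66.2 and 68.0 CPM against 23.1, 29.2 and 28.9 CPM, again without overlap (log2 -1.27, SE 0.13, adjusted p = 2.52e-09).

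H2BC12 fell less, from 83.5, 82.9 and 79.6 CPM to 58.2, 64.6 and 56.3 CPM (log2 -0.46, SE 0.07, adjusted p = 2.46e-06). The other called histone genes had lower levels. H3C15, an H3 gene with a near-identical copy, measured 2.73, 2.86 and 2.58 CPM in WT_S4 and 0.409, 0.535 and 0.602 CPM in N2V8_S4 (log2 -2.38, SE 0.43, adjusted p = 1.88e-05). H4C4 measured 1.41, 1.88 and 1.94 CPM in WT_S4 and was at 0 in N2V8_S4 replicates 1 and 3, with 0.268 CPM in replicate 2. Not every member moved: H2BC5 stood at 5.29, 7.15 and 4.92 CPM in WT_S4 and at 5.48, 6.15 and 5.67 CPM in N2V8_S4, with an interval for the log2 fold change from -0.36 to 0.36.

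With the non-targeting crRNA the histone genes of the 2 effectors were not separated in this way. The summed level of the 29 genes was 130 to 150 CPM in WT_NTG and 153 to 164 CPM in N2V8_NTG, so N2V8_S4 lay near both NTG groups and WT_S4 above all of them. H2AC18 measured 7.68, 6.84 and 6.05 CPM in WT_NTG and 9.18, 7.59 and 8.55 CPM in N2V8_NTG. H2BC21 measured 8.49, 6.28 and 6.48 CPM and 5.52, 7.20 and 6.90 CPM. The difference between the S4 and the NTG fold changes, tested as an interaction, was -2.51 for H2AC18 (SE 0.22, adjusted p = 5.87e-12), -1.89 for H2BC21 (SE 0.20, adjusted p = 3.12e-09) and -2.09 for H4C15 (SE 0.23, adjusted p = 1.43e-07). For H1-2, which was also lower in N2V8_NTG, the interaction was -0.72 (SE 0.21, adjusted p = 0.0262).

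Against the mean of the 3 other crRNAs S13, S3 and S7, the histone result was partly shared. The log2 fold changes of H2AC18 were -1.51 with S13, -2.43 with S3 and -1.74 with S7, and the interaction of S4 with their mean was -0.31 (adjusted p = 0.249). H2BC21 gave -1.28, -2.20 and -0.92, and there the interaction was -0.54 (SE 0.14, adjusted p = 0.0119), so its fall was larger with S4 than with the mean of the others. For H4C15 the values were -1.69, -0.58 and 0.09, with an interaction of -0.69 (SE 0.17, adjusted p = 0.0109). Of the 29 histone genes, 10 fell and 1 rose with S13, where 1.75% of all genes were called lower and 1.59% higher. With S3 9 fell and 5 rose, where 6.9% and 7.72% of all genes were called. With S7 10 fell, where 9.07% were called lower.

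**Figure D2:**
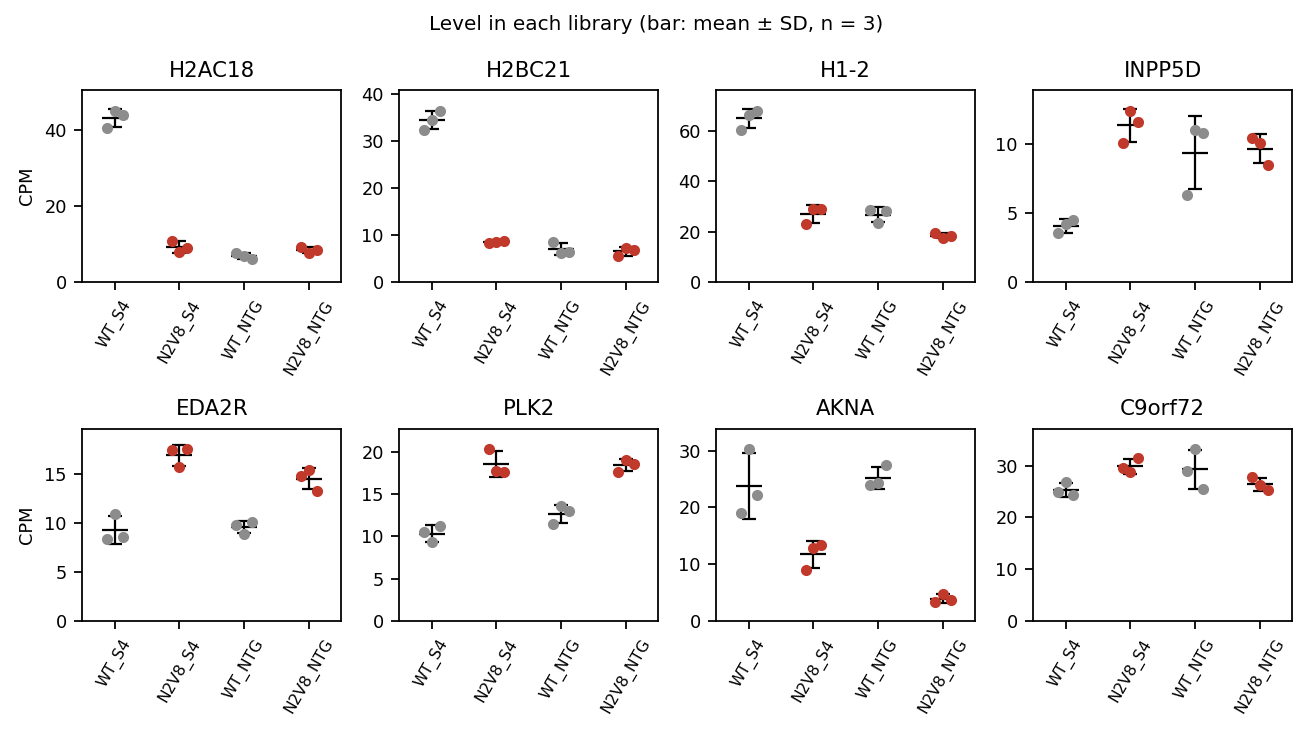
CPM in each library for 8 genes, by group, with the bar at the mean and whiskers of ± SD (n = 3). WT_S4 stands above the other groups for H2AC18, H2BC21 and H1-2 and below them for INPP5D, while EDA2R and PLK2 are higher in both N2V8 groups.

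The p53 targets moved the other way. The transcription factor p53 responds to DNA damage and to nucleolar and ribosomal stress by activating genes of cell cycle arrest, repair and apoptosis; HEK293T cells carry the SV40 large T antigen, which binds p53 and blunts this response. Of 34 tested targets 13 rose in N2V8_S4 (38.2%, against 2.93% of all genes tested) and 0 fell by the edgeR test, with 2 lower at an unadjusted p under 0.05, 0 called lower by DESeq2 or limma, and 1 called lower without N2V8_S4 replicate 3. Their median log2 fold change was 0.27, and their summed level was 2574 to 2703 CPM in WT_S4 and 2949 to 2987 CPM in N2V8_S4. The number called higher ran from 12 to 14 when any 1 of the 6 libraries was left out.

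GDF15, a secreted stress cytokine that is also a target of the integrated stress response, measured 1.41, 1.07 and 2.02 CPM in WT_S4 and 4.50, 6.24 and 2.75 CPM in N2V8_S4 (log2 1.56, SE 0.27, adjusted p = 6.97e-06). EDA2R, a receptor of the tumour necrosis factor family, measured 8.38, 10.9 and 8.55 CPM against 17.4, 15.7 and 17.5 CPM, without overlap (log2 0.87, SE 0.12, adjusted p = 7.68e-08). PLK2, a polo-like kinase, measured 10.5, 9.30 and 11.2 CPM against 20.4, 17.7 and 17.6 CPM (log2 0.84, SE 0.11, adjusted p = 2.44e-08). The 3 genes were higher in every N2V8_S4 library than in any WT_S4 library.

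TP53I3, an oxidoreductase gene, measured 1.94, 2.32 and 3.07 CPM in WT_S4 and 4.42, 4.82 and 5.16 CPM in N2V8_S4 (log2 0.96, SE 0.21, adjusted p = 0.00037). Smaller rises were found for the DNA damage-binding gene DDB2 (log2 0.57), the ribosomal protein paralogue RPS27L (0.59), the ribonucleotide reductase subunit gene RRM2B (0.47), the nuclease gene AEN (0.41) and the phosphatase gene PPM1D (0.40), all without overlap. The death receptor gene FAS rose by 0.65 although its groups touched, at 6.88, 7.15 and 11.1 CPM in WT_S4 and 13.5, 15.5 and 10.7 CPM in N2V8_S4.

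Some of the best known targets did not pass the test. CDKN1A, which encodes the cell cycle inhibitor p21, averaged 102 ± 6.71 CPM in WT_S4 and 114 ± 7.31 CPM in N2V8_S4 (SD, n = 3), with overlap (edgeR log2 0.15, adjusted p = 0.0958). MDM2, the ubiquitin ligase of p53, had a log2 fold change of -0.03 with an interval of -0.14 to 0.08, and the apoptosis effector BAX one of 0.05 with an interval of -0.10 to 0.19.

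The same 34 targets were counted with the other crRNAs. With NTG 12 were called higher and 7 lower, in a comparison where 12% and 11.7% of all genes were called. With S3 15 were higher and 2 lower, where 7.72% and 6.9% of all genes were called. With S7 14 were higher, where 10.8% of all genes were called higher. With S13 the median log2 fold change was -0.07 with 2 called higher and 2 lower, where 1.59% and 1.75% of all genes were called. PLK2 gave 0.54 with NTG, -0.21 with S13, 0.94 with S3 and 0.40 with S7, and its rise with S4 exceeded the mean of S13, S3 and S7 by 0.47 (SE 0.13, adjusted p = 0.0157). For EDA2R the corresponding excess was 0.20 and did not pass the test (adjusted p = 0.44).

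Beyond these groups, the 12 rises named by rule, which left out 2 LOC symbols or readthrough loci, were led by INPP5D, the lipid phosphatase SHIP1 known from blood cells. It measured 3.53, 4.201 and 4.52 CPM in WT_S4 and 10.1, 12.4 and 11.6 CPM in N2V8_S4, a 2.77-fold difference (log2 1.47, SE 0.17, adjusted p = 8.92e-10). In WT_NTG it measured 6.31, 10.97 and 10.8 CPM and in N2V8_NTG 10.4, 10.1 and 8.45 CPM, so the WT_S4 libraries were the low ones. The effect with NTG was 0.04, and the interaction was 1.42 (SE 0.23, adjusted p = 2.7e-05). It also differed among the other crRNAs, with -0.06 for S13, 1.51 for S3 and 3.33 for S7.

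SNHG12, a host gene whose introns carry small nucleolar RNAs, measured 4.85, 4.29 and 4.68 CPM against 10.8, 10.9 and 9.19 CPM (log2 1.16, SE 0.16, adjusted p = 9.77e-08). Its fold change was in the same direction with every other crRNA, at 1.46 with NTG, 0.29 with S13, 2.08 with S3 and 1.06 with S7. OVGP1, which encodes oviductal glycoprotein, measured 3.09, 2.50 and 3.23 CPM against 6.63, 5.88 and 5.24 CPM (log2 1.01, SE 0.20, adjusted p = 0.000109). Here S4 gave the smaller effect: the fold change was 2.21 with NTG, and the interaction was -1.20 (SE 0.29, adjusted p = 0.00511).

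METTL25, a methyltransferase-like gene, and ZNF79, a zinc-finger gene, rose by log2 fold changes of 0.83 and 0.79 (adjusted p = 0.00166 and 5.67e-06). The pseudogenes ZNF767P (1.21), CCT6P1 (0.92), SDHAP2 (0.90) and CCT6P3 (0.81) also rose, and reads of these may be shared with the genes they resemble. RNA45SN4, 1 of several near-identical copies of the ribosomal RNA precursor, measured 92.8, 142 and 143 CPM in WT_S4 and 255, 171 and 201 CPM in N2V8_S4 (log2 0.73, SE 0.21, adjusted p = 0.00772). This last call was lost without WT_S4 replicate 1 (log2 0.55, adjusted p = 0.0708) and without N2V8_S4 replicate 1 (0.56, 0.069). It was also lost when only the libraries compared were fitted (0.73, adjusted p = 0.126).

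The 12 falls named by rule left out 4 LOC symbols or readthrough loci that met its other terms, LOC105379524 (log2 -2.21) among them. Of the 12, 5 were the histone genes H2AC18, H2BC21, H2AW, H4C15 and H1-2, and 5 were non-coding RNAs. LINC01521 measured 10.9, 13.8 and 11.9 CPM in WT_S4 and 5.15, 6.15 and 5.24 CPM in N2V8_S4 (log2 -1.15, SE 0.16, adjusted p = 1.25e-07). FAM226B (log2 -1.02), TSIX (-1.01), HERPUD2-AS1 (-0.998) and LINC01000 (-0.99) followed, and since the sources used here do not state whether counting used the strand, antisense transcripts such as TSIX and HERPUD2-AS1 are uncertain. Across 1329 tested long non-coding RNAs 115 fell (8.65%) and 25 rose (1.88%), with a median log2 fold change of -0.12. Among 13525 protein-coding genes 553 fell (4.09%) and 406 rose (3%), with a median of 0.00. With NTG the median of the long non-coding RNAs was 0.07.

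AKNA was also among the 12 named falls. This gene, which encodes an AT-hook protein of the centrosome, measured 18.96, 30.3 and 22.1 CPM in WT_S4 and 8.92, 12.8 and 13.4 CPM in N2V8_S4 (log2 -1.03, SE 0.20, adjusted p = 0.000116). Its fall was steeper with NTG, from 23.9, 24.2 and 27.5 CPM to 3.23, 4.73 and 3.69 CPM, and the interaction was 1.68 (SE 0.32, adjusted p = 0.000741).

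C9orf72, the gene the study addresses, lies on chromosome 9 (chr9:27546546-27573866, GRCh38) and encodes a subunit of a complex with SMCR8 and WDR41 that acts in autophagy and membrane traffic. The table gives 1 value per gene, so its transcript variants are not resolved. C9orf72 measured 24.9, 26.9 and 24.3 CPM in WT_S4 and 29.5, 28.7 and 31.5 CPM in N2V8_S4. All 3 N2V8_S4 values were above all 3 WT_S4 values, and the log2 fold change was 0.24 (SE 0.09, interval 0.05 to 0.43, adjusted p = 0.0502), which was not called. Over the alternatives and fits without 1 library its log2 fold change ran from 0.20 to 0.29 and its adjusted p from 0.0396 to 0.161, and none passed both thresholds.

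In WT_NTG C9orf72 measured 29.0, 33.2 and 25.6 CPM and in N2V8_NTG 27.8, 26.2 and 25.3 CPM. The effector difference was -0.14 there, -0.06 with S13, -0.17 with S3 and 0.23 with S7, none of them called. The interaction of S4 with NTG was 0.38 (SE 0.13, adjusted p = 0.0641), and that with the mean of S13, S3 and S7 was 0.24 (SE 0.11, adjusted p = 0.185). SMCR8 measured 52.4, 51.0 and 50.4 CPM in WT_S4 and 36.5, 44.4 and 46.7 CPM in N2V8_S4 (log2 -0.27, adjusted p = 0.00545), a change below the fold threshold. WDR41 had a log2 fold change of 0.13 (adjusted p = 0.0616). Of 41 tested genes of the complex and autophagy, 1 rose, PIK3C3 (log2 0.41, adjusted p = 0.000567), the lipid kinase of autophagosome nucleation, and 1 fell, ATG14 (-0.43, adjusted p = 0.00296), a subunit of that kinase's complex. Both counts were near the shares of all genes, and on leaving out 1 of the 6 libraries they ran from 1 to 2 and from 1 to 3.

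The integrated stress response, in which phosphorylation of eIF2 raises ATF4 and its amino acid genes, gave different counts with S4 and with NTG. Of 44 tested members 1 rose, GDF15 (2.27%, against 2.93% of all genes), and 5 fell with S4 (11.4%, against 4.48%), where the median log2 fold change was -0.14. With NTG, where 11.7% of all genes were called lower and 12% higher, 34 fell and 2 rose with a median of -0.57. With S7, where 10.8% were called higher, 30 rose with a median of 0.56. The interaction of S4 with NTG was called higher for 26 members and lower for 1, where 3.4% and 4.22% of all genes were called. The number of members called lower with S4 was 8, 2 and 3 without WT_S4 replicates 1, 2 and 3, and 2 and 3 without N2V8_S4 replicates 1 and 2, so it rested on single libraries.

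PPP1R15A, the phosphatase subunit that reverses eIF2 phosphorylation, fell from 84.8, 100 and 98.3 CPM to 69.8, 68.7 and 80.1 CPM (log2 -0.37, SE 0.09, adjusted p = 0.0026). ATF4 itself measured 844, 850 and 846 CPM in WT_S4 and 766, 777 and 801 CPM in N2V8_S4, a log2 difference of -0.12 that was not called. ASNS, asparagine synthetase, had a log2 fold change of -0.08 with S4 and of -1.19 with NTG, and its interaction was 1.11 (adjusted p = 3.53e-05). SLC7A11, the cystine transporter subunit, measured 55.9, 66.4 and 55.8 CPM in WT_S4 and 38.7, 44.1 and 52.1 CPM in N2V8_S4, which did not pass the test (log2 -0.40, adjusted p = 0.0979). With NTG it went from 66.5, 56.7 and 60.2 CPM to 21.2, 12.9 and 21.5 CPM, and the interaction was 1.31 (SE 0.27, adjusted p = 0.00179).

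**Figure D3:**
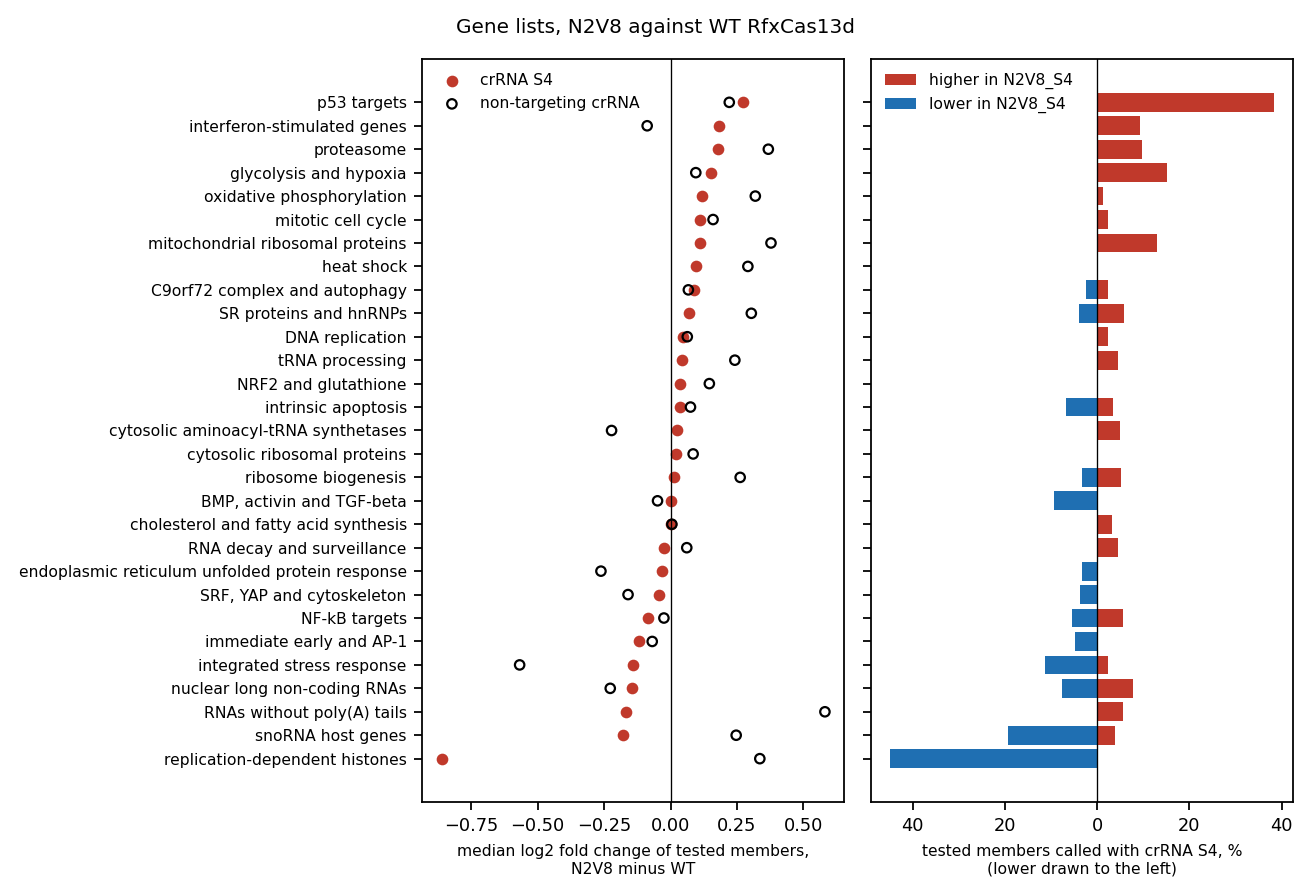
For each gene list, the left panel plots the median log2 fold change of N2V8 over WT among its tested members with crRNA S4 (filled) and with the non-targeting crRNA (open), and the right panel the percentage of members called with S4, with those lower in N2V8 drawn to the left. Histone genes are at -0.86 with S4 and at 0.34 with NTG, and p53 targets are at 0.27 and 0.22.

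The small nucleolar RNA host genes, whose spliced exons are usually degraded, had 1 member that rose (SNHG12; 3.85%, against 2.93% of all genes) and 5 that fell (19.2%, against 4.48%) among 26 tested. SNHG3 fell from 68.6, 63.1 and 69.4 CPM to 48.4, 49.1 and 50.6 CPM (log2 -0.44, SE 0.07, adjusted p = 5.43e-06), while with NTG its value was 0.52. The number of falls in this list was 2 without N2V8_S4 replicate 2 and 3 without N2V8_S4 replicate 3 or WT_S4 replicate 3, and the number of rises was 2 without WT_S4 replicate 1.

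A small number of genes of energy metabolism and protein turnover were called higher. Of 77 mitochondrial ribosomal protein genes 10 rose (13%, against 2.93% of all genes; median log2 0.11). With NTG, where 12% of all genes were called higher, 42 rose (median 0.38). MRPL1 went from 13.2, 12.6 and 11.6 CPM to 20.1, 18.5 and 17.4 CPM (log2 0.58, adjusted p = 0.00019), and MRPL23 rose by a log2 fold change of 0.49 (adjusted p = 0.00074). Of 77 genes of oxidative phosphorylation 1 was called higher (1.3%, below the 2.93% of all genes), the ATP synthase gene ATP5PB (0.37, adjusted p = 5.84e-06). The list still leaned upward by a small amount. Its median log2 fold change was 0.12, and 66 of the 77 lay above 0, against 7607 of all 15378 genes tested. At an unadjusted p under 0.05 by the edgeR test, 36 were higher and 0 lower. With NTG 37 of the 77 were called higher, again beside 12% of all genes.

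Of 31 proteasome genes 3 were called higher with S4 (9.68%, against 2.93% of all genes), among them the deubiquitinase subunit gene PSMD14 (0.39, adjusted p = 3.96e-06), and 21 with NTG (against 12% of all genes). The median of the 31 with S4 was 0.18, and 30 of them lay above 0. At an unadjusted p under 0.05 by the edgeR test, 23 were higher and 1 lower. Of 33 genes of glycolysis and hypoxia 5 rose (15.2%, against 2.93%), among them TPI1, triosephosphate isomerase, from 635, 603 and 692 CPM to 869, 864 and 756 CPM (0.37, adjusted p = 0.00137). These counts of called genes rested on single libraries. The glycolysis count was 1 without WT_S4 replicate 2, 2 without N2V8_S4 replicate 1 or 2, and 8 without N2V8_S4 replicate 3. The proteasome count was 1 without WT_S4 replicate 2 and 5 without N2V8_S4 replicate 3, and the oxidative phosphorylation count was 4 without WT_S4 replicate 3, 3 without N2V8_S4 replicate 2 and 5 without N2V8_S4 replicate 3.

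Among 32 interferon-stimulated genes 3 rose (9.38%, against 2.93% of all genes), with IFIT1, an RNA sensor, at 7.94, 7.33 and 8.23 CPM against 11.9, 11.1 and 11.9 CPM (log2 0.57, SE 0.13, adjusted p = 0.000785) and the ISG15 ligase gene HERC5 at 0.43 (adjusted p = 0.000129). Among 18 NF-kB targets the subunit gene REL fell (-0.47, adjusted p = 6.01e-07) and CD83 rose (0.41, adjusted p = 0.00315). Each was 5.56% of that list, against 4.48% of all genes lower and 2.93% higher. On leaving out 1 library the NF-kB falls ran from 1 to 2. Of 30 genes of intrinsic apoptosis 2 fell (6.67%, against 4.48% of all genes) and 1 rose (3.33%, against 2.93%). Without 1 library these counts ran from 1 to 3 and from 0 to 1. XIAP, a caspase inhibitor, averaged 135 ± 8.07 CPM in WT_S4 and 104 ± 4.997 CPM in N2V8_S4 (SD, n = 3, edgeR log2 -0.37, adjusted p = 7.33e-06).

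Of 32 genes of BMP, activin and TGF-beta signalling 3 fell (9.38%, against 4.48% of all genes), among them the activin subunit genes INHBA (-0.62, adjusted p = 0.00232) and INHBE (-0.56, adjusted p = 0.00108). The list as a whole did not move, with a median log2 fold change of 0.00 and 16 of the 32 above 0. The number of falls was 2 with DESeq2, and also without WT_S4 replicate 1 or 2 or N2V8_S4 replicate 2. INHBE went the opposite way with S7, where its log2 fold change was 1.66.

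Among RNA-handling genes the shares called were near those of all genes (2.93% higher and 4.48% lower). Of 52 SR protein and hnRNP genes 3 rose (5.77%; 1 gene without WT_S4 replicate 1) and 2 fell (3.85%). SRRM2, a scaffold of nuclear speckles, fell from 848, 920 and 779 CPM to 568, 595 and 696 CPM (log2 -0.45, SE 0.09, adjusted p = 0.000294), HNRNPA0 fell by 0.36 on the log2 scale (adjusted p = 9.5e-09) and SRSF7 rose by 0.36 (adjusted p = 0.000105). Of 59 ribosome biogenesis genes 3 rose (5.08%; 5 genes without N2V8_S4 replicate 3) and 2 fell (3.39%; 1 gene without WT_S4 replicate 2). UTP4 and DDX10, factors of the small subunit processome and of early assembly, each rose by 0.39, and TCOF1, treacle of ribosomal RNA transcription, fell by 0.52 on the log2 scale (adjusted p = 0.00944). Of 45 genes of RNA decay 2 rose (1 without WT_S4 replicate 1), among them the exosome subunit gene EXOSC9 (0.37, adjusted p = 0.000226), and of 68 tRNA processing genes 3 rose. Of 20 cytosolic aminoacyl-tRNA synthetase genes 1 rose.

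Calls were few in the other lists, beside 2.93% of all genes higher and 4.48% lower. In DNA replication 1 of 44 rose, PRIM2, a primase subunit gene (log2 0.40, adjusted p = 1.11e-05), and 1 of 41 mitotic genes rose. In cholesterol and fatty acid synthesis 1 of 32 rose, among 31 genes of the unfolded protein response 1 fell, and among 42 immediate early genes 2 fell. The immediate early count was 4 without WT_S4 replicate 2 or N2V8_S4 replicate 1, 1 without N2V8_S4 replicate 2 and 5 without N2V8_S4 replicate 3. Among 27 targets of SRF and YAP 1 fell, among 18 RNAs without poly(A) tails 1 rose (RNA45SN4), and among 13 nuclear long non-coding RNAs 1 rose and 1 fell. PRIM2 kept its call whichever of the 6 libraries was left out. The other single calls of this paragraph came and went, and the lists that had 1 call then had 0 to 3. No call was made by the edgeR test (0) among 79 cytosolic ribosomal protein genes, 26 heat shock genes and 24 genes of NRF2 and glutathione. At an unadjusted p under 0.05, 15 ribosomal protein genes were higher and 6 lower, 11 heat shock genes were higher, and 6 and 3 of the glutathione list were higher and lower. DESeq2 called none of these lists' genes, and limma called 1 heat shock gene higher. Without 1 of the libraries up to 2 heat shock genes and up to 2 of the glutathione list were called higher.

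The number of genes that separated the effectors varied with the crRNA. With NTG 3640 genes were called (23.7%), with S7 3053 (19.9%), with S3 2248 (14.6%) and with S13 513 (3.34%), against 1139 with S4. The 5 comparisons share no library. Of the S4 calls 609 were called in the same direction with NTG (53.5% of the S4 calls and 16.7% of the NTG calls) and 23 in the opposite direction. The corresponding shared calls were 561 with S3 (49.3% and 25%), 289 with S7 (25.4% and 9.47%) and 141 with S13 (12.4% and 27.5%), with 9, 83 and 14 in the opposite direction.

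**Figure D4:**
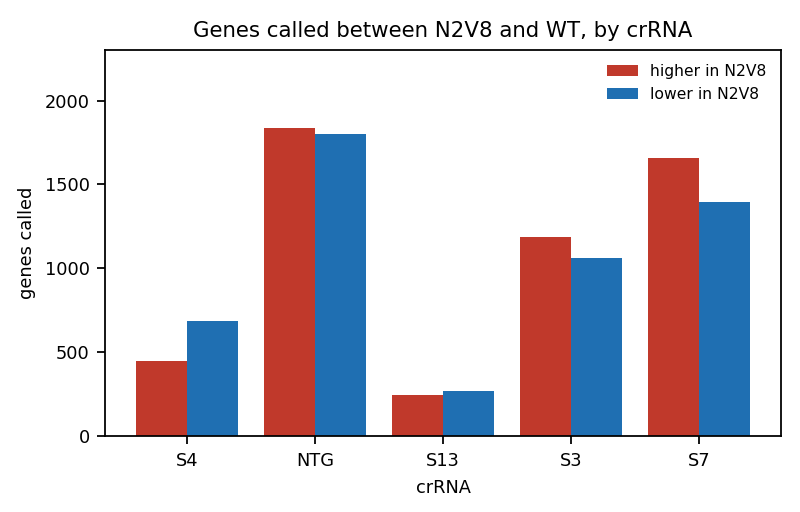
Number of genes called higher (red) and lower (blue) in N2V8 than in WT, for each crRNA on the x axis, 3 libraries a group. S4, with 450 higher and 689 lower, lies between S13 and S3.

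A set of 24 genes was called in the same direction with all 5 crRNAs, 16 higher and 8 lower in N2V8. CNOT10, a subunit of the CCR4-NOT deadenylase, averaged 53.8 ± 2.52 CPM in WT_S4 and 76.6 ± 1.99 CPM in N2V8_S4 (SD, n = 3), and its log2 fold change was 0.51 with S4 (SE 0.06, adjusted p = 4.71e-09), 0.59 with NTG, 0.56 with S13, 0.58 with S3 and 0.36 with S7. TRIT1, a tRNA isopentenyltransferase, gave 0.43, 0.77, 0.35, 0.48 and 0.46 in the same order. Lower in N2V8 throughout was CREBBP, a histone acetyltransferase, with -0.59, -0.97, -0.34, -0.53 and -0.40, and H1-2 was another of the 8.

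In the other direction, 222 S4 calls (19.5%) were called with no other crRNA, which does not by itself show a difference. The interaction of S4 with NTG was called for 1172 genes (7.62%), 523 more positive and 649 more negative with S4. Against the mean of S13, S3 and S7 the number was 268 (1.74%), 77 more positive (0.501%) and 191 more negative (1.24%). These counts depended on the fit: without the factor of unwanted variation they were 530 and 90, and with DESeq2 638 and 122. The genes called with S4 and in both interactions numbered 50 (4.39% of the S4 calls) and included H2BC21, H4C15, LINC01521 and FUT1. FUT1, a fucosyltransferase, fell from 9.61, 12.5 and 10.3 CPM to 4.58, 6.33 and 6.02 CPM (log2 -0.94, SE 0.21, adjusted p = 0.000461). That was less than with NTG (-2.24), and S7 gave 1.36.

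**Figure D5:**
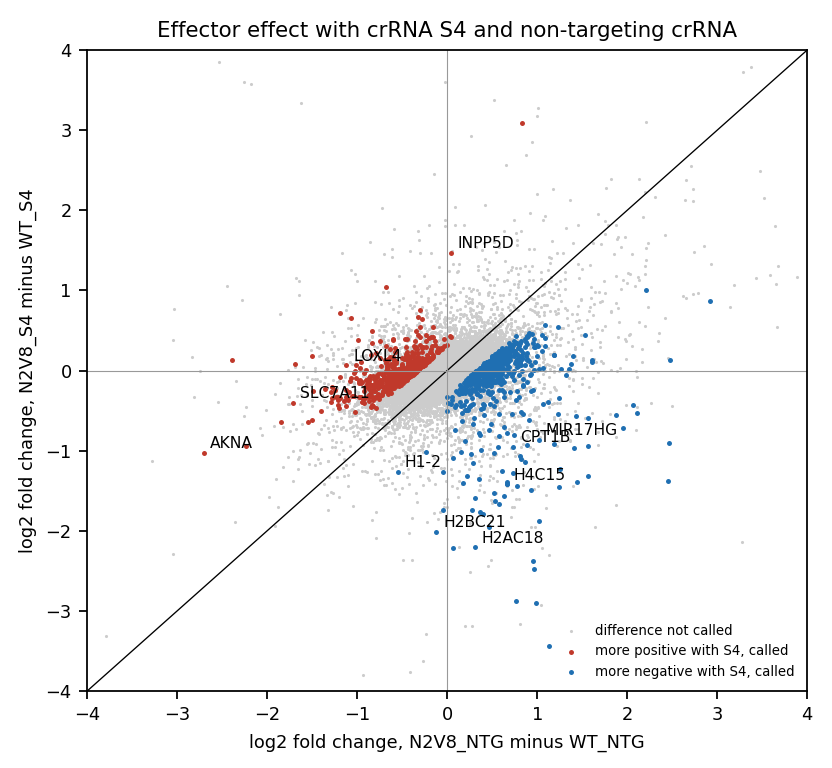
Log2 fold change of N2V8 over WT with crRNA S4 (y axis) against that with the non-targeting crRNA (x axis) for the tested genes within 4 log2 units on both axes, 56 genes lying outside. Genes whose interaction was called are coloured, red above the diagonal and blue below it, with the histone genes H2AC18, H2BC21 and H4C15 below and AKNA, INPP5D and SLC7A11 above.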

How the data were processed

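RNA-seq libraries of HEK293T cells were analysed from the deposited table of 38137 genes in 54 libraries. Per the labels and the study's methods, the authors quantified reads against GRCh38 with Salmon 1.5.2 and summarised them per gene in R 4.2.2 as length-scaled estimated counts, which are not whole and were rounded here. The authors' own column of kept genes was used only for an alternative. Samples were grouped by their labels. In R 4.3.3, genes were kept by filterByExpr of edgeR 4.0.16 (15378; 0.0723% of counts were in genes left out) and scaled by the trimmed mean of M-values. All 54 libraries entered 1 quasi-likelihood fit with 1 factor of unwanted variation from residuals, 35 residual degrees of freedom, and no block. The factor held 23.4% of the residual variance. Of its squared weight, 95.6% lay in the 3 N2V7_S4 libraries and 0.281% in the 6 S4 libraries. P-values were adjusted over the 5 comparisons of N2V8 with WT together, and over the 2 interaction contrasts together.

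Genes were named as the 12 largest changes per direction among calls without overlap and with log2 CPM averaging 2 or more (LOC symbols and readthrough loci, 2 rises and 4 falls, were counted and not named), the 6 largest per direction in each interaction, C9orf72, and up to 3 called members per list with the largest change. Further list members, and the genes called with all crRNAs, were chosen after their values were seen, and members whose call depended on 1 library were mostly counted only. The comparison and the 32 lists were chosen with earlier results of these data known. Symbols and positions are from RefSeq GRCh38.p14 (15254 of the tested genes matched) and stem-loops from GENCODE. Alternatives used limma 3.58.1 and DESeq2 1.42.0, other normalisation, filters and thresholds, and fits without each library. Scripts were tested on simulated data. Intervals are 95%. The S4 crRNA's sequence is not used here. A small number of named genes are not reported here.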

Additional observations from a re-analysis of the deposited data

Results flagged for a closer look

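The effector difference depended on the crRNA for 1172 genes when S4 was set against NTG and for 268 genes when S4 was set against the mean of S13, S3 and S7, each tested as an interaction by edgeR's quasi-likelihood test with Benjamini-Hochberg adjustment. Without the factor of unwanted variation these counts were 530 and 90, and with DESeq2 638 and 122. Values below are differences of log2 fold changes, positive where N2V8 over WT was higher with S4.

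Against NTG, the named genes that were more positive with S4 were AKNA (1.68), INPP5D (1.42), SLC7A11 (1.31), FUT1 (1.30), ATF5 (1.20) and LOXL4 (1.19). LOXL4, a lysyl oxidase, differed little between effectors with S4, at 12.2, 13.0 and 11.5 CPM in WT_S4 and 12.3, 11.8 and 14.3 CPM in N2V8_S4, while with NTG it went from 15.5, 18.1 and 16.4 CPM to 7.22, 8.68 and 7.19 CPM. For ATF5, a factor of the integrated stress response, the adjusted p was 0.0188, and the call was lost when only the libraries compared were fitted (adjusted p = 0.0764) and without WT_NTG replicate 3 (1.06, adjusted p = 0.0607), WT_S4 replicate 1 (1.05, 0.0602) or N2V8_S4 replicate 3 (1.03, 0.0682).

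More negative with S4 than with NTG were the histone genes H2AC18 (-2.51), H4C15 (-2.09) and H2BC21 (-1.89), the microRNA host MIR17HG (-1.88), the carnitine transferase gene CPT1B (-1.69) and the small nucleolar RNA host SNHG30 (-1.58). CPT1B measured 5.12, 4.11 and 6.29 CPM in WT_S4 and 3.27, 3.03 and 1.72 CPM in N2V8_S4, against 2.91, 3.18 and 5.199 CPM in WT_NTG and 6.80, 4.83 and 7.28 CPM in N2V8_NTG, so the groups were ordered oppositely with the 2 crRNAs.

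Against the mean of S13, S3 and S7, SGK1 (1.13, adjusted p = 7.11e-05), a serum-induced kinase gene, and SMAD7 (0.64, adjusted p = 0.00321), an inhibitor of TGF-beta signalling, were more positive with S4. RSRP1 (0.64), NTN4 (0.59), CTSF (0.54) and KIF5A (0.54) were too, but each lost its call on leaving out a library. All 4 also lost it without the factor and with DESeq2. For NTN4 the libraries were WT_S4 replicate 2 (0.50) and N2V8_S4 replicate 3 (0.48). For CTSF they were WT_S4 replicate 3 (0.48) and N2V8_S4 replicate 2 (0.51). For KIF5A they were WT_S4 replicate 2 (0.52) and N2V8_S4 replicate 1 (0.49). For RSRP1 they were replicates 2 (0.57) and 3 (0.61) of WT_S4, replicates 2 (0.67) and 3 (0.53) of N2V8_S4, and N2V8_S3 replicate 2 (0.59), N2V8_S7 replicate 2 (0.60) and N2V8_S13 replicate 3 (0.60).

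More negative with S4 than with that mean were CPT1B (-1.82), ANKRD36B (-1.35), the long non-coding RNA PVT1 (-1.14), the pseudogene TOB2P1 (-1.09), SRP14-AS1 (-1.08) and H2AW (-1.02). PVT1 did not fall with S4. It was called higher in N2V8 with every crRNA, at 0.53 with S4, 0.86 with S13, 2.18 with S3 and 1.99 with S7. Its S4 call was lost without WT_S4 replicate 1 or 3 or N2V8_S4 replicate 2. TOB2P1 gave -0.66 with S4, -0.56 with S13, -0.01 with S3 and 1.85 with S7. ANKRD36B lost its call without WT_S4 replicate 2 (-1.11) or N2V8_S4 replicate 1 (-1.23), and H2AW without N2V8_S4 replicate 3 (-0.78) and without the factor (adjusted p = 0.12). SRP14-AS1, at an adjusted p of 0.0394, lost it without the factor, with DESeq2, and without replicate 1 (-1.06) or 3 (-0.96) of WT_S4, replicate 1 (-0.99) or 3 (-0.98) of N2V8_S4, N2V8_S3 replicate 3 (-1.03), WT_S7 replicate 1 (-1.02), N2V8_S7 replicate 2 (-1.03) or 3 (-1.03), WT_S13 replicate 1 (-1.07) and N2V8_S13 replicate 2 (-1.02).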

How the results depend on the processing

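With N2V8_S4 against WT_S4 the 1139 calls became 753 at an adjusted p under 0.01, and otherwise lay between 898 (DESeq2) and 1239 (no low-count filter). That adjusted p left 254 calls with S13, 632 for S4 minus NTG and 87 for S4 minus the mean of S13, S3 and S7. Adjusting within each comparison gave 260 with S13 and 149 for the last contrast. Without the factor the interaction contrasts gave 530 and 90 calls, and with DESeq2 638 and 122. Leaving out 1 library at a time gave 895 to 1368 calls for S4, 3309 to 3683 for NTG, 446 to 530 for S13, 1962 to 2288 for S3, 2737 to 3018 for S7, 874 to 1223 for S4 minus NTG, and 160 to 318 for S4 minus the mean, lowest without N2V8_S4 replicate 1 (160) and replicate 2 (164). A further pair of settings was chosen after seeing the data: the authors' gene filter gave 1134 S4 calls, and leaving out N2V7_S4 replicate 2 gave 1211, with 332 for S4 minus the mean.

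Same-numbered libraries of the S4 groups showed no shared deviation over all genes (correlations of -0.00717, 0.0306 and -0.0438). These values cannot tell whether such libraries were handled together, and the main fit used no pairing. With a replicate block 1134 genes were called for S4, 1124 of them shared with the fit without it.

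All 102 results for named genes kept their direction in every alternative run, and 63 kept their call in all of them. The 102 had been chosen as calls of the main fit, and some alternatives changed only the adjustment or threshold. A kept direction is therefore weak evidence of stability. NES, a HEK293T marker, was lower in N2V8_S4 (log2 -0.68), and its call was lost without WT_S4 replicate 1 (-0.54, adjusted p = 0.0653). With 3 libraries a group, low genes such as H4C4 rest on few counts.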
